A study of Mus musculus with 43 samples.

Results

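The Notch pathway of the retina was followed here through 10 genes: the ligands Jag1 and Dll4, the receptors Notch1, Notch2 and Notch3, the nuclear factor Rbpj, the target repressors Hes1, Hes5 and Hey1, and the feedback regulator Nrarp. They were taken from the count table by gene symbol, and each symbol matched 1 Ensembl mouse gene. They are 10 of 54532 genes in the table, and all 10 were among the 18197 genes with enough counts to be tested. The set was chosen by pathway membership with CPM values and SCFA results of these same libraries already known, and which values decided on each gene is not recorded. Differences with SCFA, and how these differ by sex, are therefore given for these genes as a description, without a test. A gene is called past the threshold at an adjusted p under 0.1 in edgeR's quasi-likelihood test over all genes, the adjusted p limit of the study, whose rule also had a fold change limit. Counts with an absolute log2 fold change over 1 as well are given beside the first ones.

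Notch receptors are cut after they bind a ligand on a neighbouring cell, and the freed intracellular part joins RBPJ on DNA and switches on genes of the Hes and Hey families. Nrarp is itself a target and its product lowers the amount of the intracellular receptor fragment, so it closes a feedback loop. In the retina, Müller glia and glial progenitors use Hes1 and Hes5, and in growing vessels Dll4 in tip cells, Jag1 and Nrarp set how many sprouts form.

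Each of the 43 libraries was made from a pool of 2 retinas, taken from different C57BL/6J mice that had received laser burns at 9 weeks of age to induce choroidal neovascularization (CNV). All mice were lasered, the controls included, and no library came from an untreated eye. SCFA mice drank water with 67.5 mM sodium acetate, 40 mM sodium propionate and 25 mM sodium butyrate from 3 weeks before the laser until collection, and control mice drank water without these short-chain fatty acids. The gram amounts that the labels give beside the propionate and butyrate concentrations fit the interchanged molar values, so which of these was given is uncertain. The treatment field of the labels reads control for every library, and the treatment was taken from the library names in their descriptions. Retinas were collected 3, 7 or 14 days post-laser (dpl), which with 2 sexes and 2 treatments gave 12 groups of 3 to 5 libraries, 21 male and 22 female in all. The shallowest library had 14826957 counts, the deepest 21507527 and the median library 17683615. Photoreceptor markers summed to between 46900 and 97500 counts per 1e+06 counts of the library (CPM) and Müller glia markers to between 3660 and 9280 CPM, while endothelial markers summed to between 165 and 381 CPM.

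Libraries stood apart in several ways. The columns of the table pass through the groups once in 31 columns and then start again for 12 more, of which 4 are control and 8 SCFA. These 12 libraries, called the second run of columns here, held 2.5 to 4.57% mitochondrial mRNA against 4.71 to 14.8% in the first run, and 52% of all genes tested differed between the runs in edgeR's quasi-likelihood test at an adjusted p under 0.1. What the second run stands for is not stated in the labels, so it was kept as a term in the main fit. Fits without this term are given as alternatives. One female library, control replicate 2 at 7 dpl, held 308 counts of the Y-linked gene Ddx3y. Female SCFA replicate 2 at 3 dpl had a median correlation with the other libraries of 0.933, the lowest of all, and the highest sum of pigment epithelium markers, 1850 CPM.

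Jag1 was the most abundant of the 10 genes at a median of 145 CPM, and Dll4 the least abundant per length. Per kilobase of exon, the median level was 24.8 CPM for Jag1, 11 for Hes1, 4.4 for Hes5 and 4.27 for Hey1. Below these came Rbpj at 2.28, Notch2 at 1.72, Notch1 at 0.693, Nrarp at 0.565, Notch3 at 0.51 and Dll4 at 0.371. Jag1 stood above Hes1, Hes1 above Hes5, Hey1 above Rbpj and Notch2 above Notch1 in all 43 libraries. Hes5 was above Hey1 in 24 of 43 libraries and Nrarp above Notch3 in 24 of 43, so neither pair had an order beyond its spread. By the length of the longest transcript, Rbpj moved to 5.29 CPM per kilobase, above Hes5 at 4.71. Nrarp was counted 6 to 63 times per library and Dll4 9 to 53 times, so counting error weighs more on these genes than on Jag1, with 1631 to 3805 counts.

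**Figure D1:**
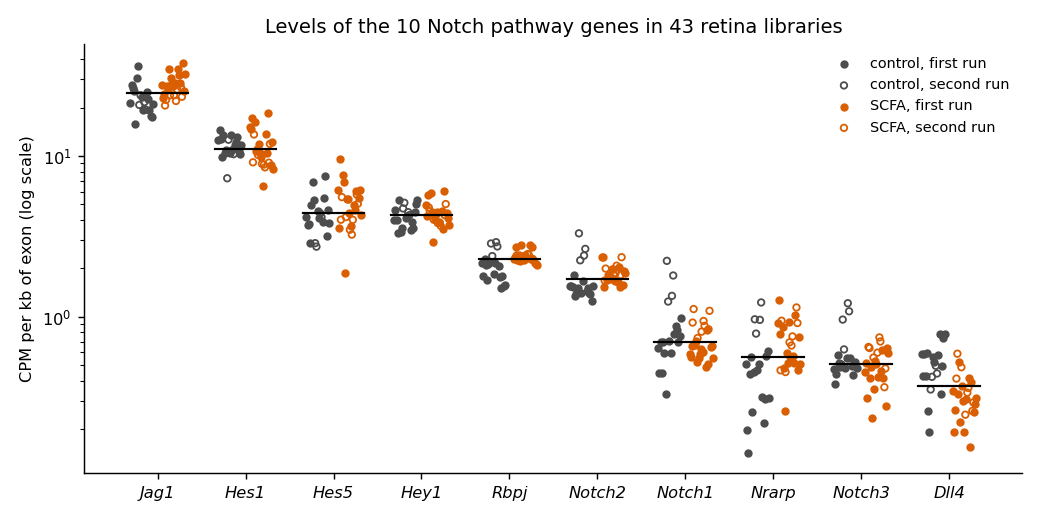
Level of each gene in each of the 43 libraries, in CPM per kilobase of exon on a log scale, with the median of all libraries as a bar. Grey points are control and orange points SCFA libraries, and open points are the second run of columns. Jag1 lies highest at a median of 24.8 and Dll4 lowest at 0.371, and the second-run points of Notch1 have a median of 14.5 CPM before division by length, against 9.04 CPM in the first run.

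Jag1 (ENSMUSG00000027276, chr2:137081456-137116644, minus strand, GRCm38) encodes a membrane-bound ligand. Its control libraries held, in males at 14 dpl, 103, 102 and 123 CPM and its SCFA libraries 219, 147 and 189 CPM. The groups did not overlap, as those of 6 of the 10 genes and of 33.5% of all genes did not in that comparison, and the difference was 0.76 ± 0.17 (log2 fold change ± SE, as in all differences given here). At 7 dpl the male controls held 145, 131 and 112 CPM and the SCFA libraries 201, 186, 165, 156 and 136 CPM, so the lowest SCFA library lay within the control range. That difference was 0.49 ± 0.15 over both runs and 0.51 ± 0.18 in the first run alone. Females gave 0.30 ± 0.16 at 7 dpl and a value near 0 at 14 dpl, -0.07 ± 0.16.

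Dll4 (ENSMUSG00000027314, chr2:119325784-119335962, plus strand), the ligand of endothelial tip cells, went the other way. Its control libraries of males at 14 dpl held 1.91, 2.86 and 3.01 CPM and the SCFA libraries 0.979, 1.11 and 1.21 CPM. These groups did not overlap, and the difference was -1.23 ± 0.37. At 7 dpl male controls held 2.23, 2.99 and 1.28 CPM and male SCFA libraries 1.6, 0.595, 1.52, 1 and 1.13 CPM, with the lowest control inside the SCFA range. This difference of -1 ± 0.33 became -0.82 ± 0.39 in the first run alone and -0.69 ± 0.37 without male control replicate 2. Over both sexes and 3 days, Dll4 was lower with SCFA in 6 of 6 strata, as was Notch1 in the same fit. For Notch1 the female differences at 3 and 7 dpl were near 0, at -0.01 ± 0.26 and -0.02 ± 0.27 in DESeq2. Without the run term in edgeR these 2 Notch1 values were 0.38 ± 0.36 and 0.18 ± 0.37. The Dll4 median was 1.19 CPM in 24 SCFA and 1.91 CPM in 19 control libraries, and the mean difference was -0.64 ± 0.14. In DESeq2 the female Dll4 differences were -0.20 ± 0.36 at 7 dpl and -0.09 ± 0.38 at 14 dpl, each smaller than its SE. The first was 0.11 ± 0.38 without female control replicate 2 at 7 dpl and female SCFA replicate 2 at 3 dpl. The second was 0.08 ± 0.45 with replicate number as a term.

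Nrarp (ENSMUSG00000078202, chr2:25180758-25183339, plus strand) differed most between SCFA and control libraries, in females at 3 dpl and in males at 7 dpl. Female controls at 3 dpl held 1.31, 0.514 and 0.365 CPM, from 25, 9 and 6 counts, and female SCFA libraries 2.37, 3.28, 2.03, 1.2 and 2.44 CPM. Only the lowest SCFA library, from the second run, fell within the control range. The difference was 1.48 ± 0.41. Nrarp was the 1 of the 10 genes past the threshold there, also with the fold limit, where 8.11% of all genes were, and 2.09% with the fold limit. These 1476 genes became 11 without female control replicate 3. In the first run alone, 3 libraries against 3, the Nrarp difference was 1.76 ± 0.45. Without female SCFA replicate 2, the library that stood apart, and the library with Ddx3y counts, it was 1.22 ± 0.42 and fell out. It also fell out at 1.27 ± 0.47 without female control replicate 2 and at 1.17 ± 0.46 without female control replicate 3. Nothing is read from the Nrarp call, because the genes were listed with SCFA results known.

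In males at 7 dpl, Nrarp stood at 0.816, 0.565 and 0.799 CPM in controls and at 1.47, 1.34, 2.63, 2.95 and 2.36 CPM in SCFA libraries. Every SCFA library was above every control, as for 3 of the 10 genes, in a comparison where the groups of 17.8% of all genes did not overlap. The difference was 1.40 ± 0.42, or 2.64-fold, and 1.30 ± 0.45 in the first run alone. In the remaining strata it was smaller than its SE: -0.28 ± 0.38 in males at 3 dpl, 0.21 ± 0.41 in females at 7 dpl, and 0.21 ± 0.43 and 0.06 ± 0.40 in males and females at 14 dpl. The 2 strata with the large differences also had the lowest control means of the 6, at 0.728 ± 0.506 CPM (SD, n = 3) in females at 3 dpl and 0.726 ± 0.14 CPM (SD, n = 3) in males at 7 dpl, and the highest was 2.04 ± 0.942 CPM (SD, n = 4) in males at 3 dpl.

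**Figure D2:**
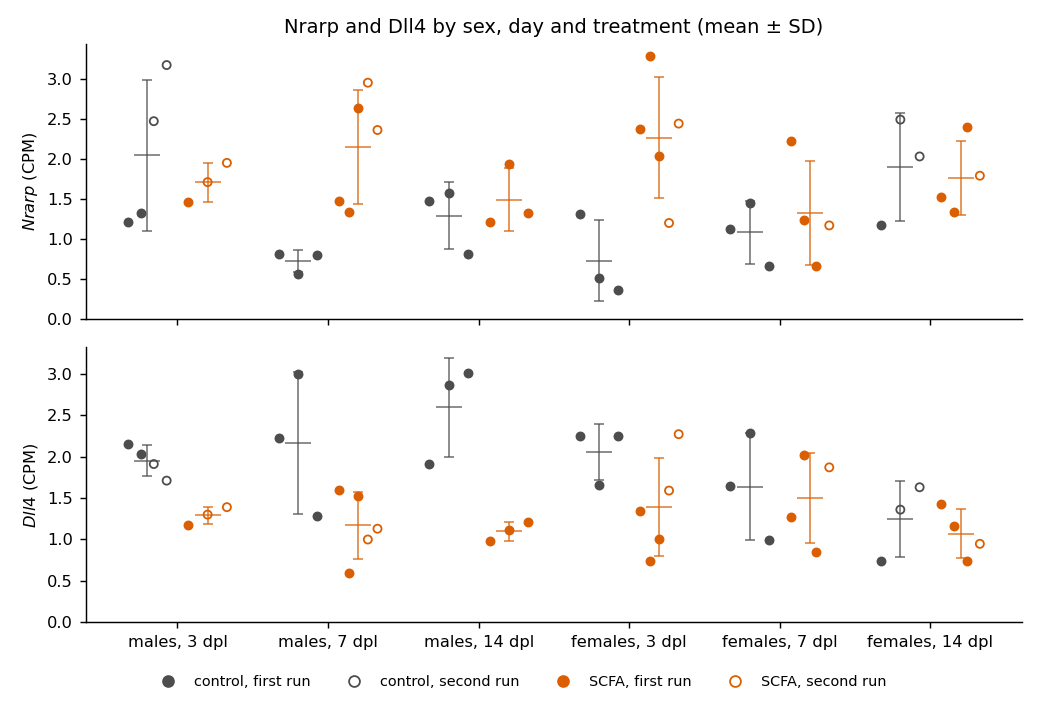
Nrarp and Dll4 in CPM by sex, day and treatment, each point a library and each bar the mean with its SD. Grey is control, orange SCFA, and open points are the second run of columns. Nrarp is lowest in the controls of males at 7 dpl and females at 3 dpl, and Dll4 in males at 14 dpl lies at 1.91 to 3.01 CPM in controls and 0.979 to 1.21 CPM with SCFA.

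Summed markers of 2 cell types moved with these Nrarp values. Nrarp correlated with the summed endothelial markers at a Spearman rho of 0.74 and with the summed Müller glia markers at 0.62 over the 43 libraries after the mean of each run was removed, and these points share depth, batch and tissue makeup. Abundant genes weigh most in such sums of CPM. The median was 81.1 CPM for Kdr and 82.5 CPM for Flt1, where that of the endothelial sum was 238 CPM. For the Müller glia sum it was 4900 CPM, and for Glul, 1 of its markers, 2850 CPM. Of 10 endothelial markers, 0 passed the edgeR threshold in females at 3 dpl and 1 in males at 7 dpl, where 8.11 and 22.2% of all genes did. In males at 7 dpl the endothelial sums were 195 to 206 CPM in controls and 218 to 319 CPM with SCFA. Müller glia markers passed as higher in 4 of 10 cases in females at 3 dpl, where 4.78% of all genes did, with sums of 4360 to 5270 CPM in controls and 4730 to 8600 CPM with SCFA, and in 4 of 10 cases in males at 7 dpl, where 13.1% of all genes did, with 3660 to 4680 and 4870 to 9280 CPM. In females at 3 dpl, 4 of 8 pigment epithelium markers were also higher, with sums of 226 to 424 CPM in controls and 164 to 1850 CPM with SCFA. All 28 of these endothelial, glial and pigment epithelium markers had at least 1 count in every library. Their part in the Nrarp difference was not tested, and in whole retina more cells of a type and more RNA per cell cannot be told apart.

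The 5 genes whose levels followed Nrarp most closely over the 43 libraries were Sobp and Kdr at a rho of 0.78, Dcaf12 at 0.77, and Pfkfb3 and Fbxo21 at 0.76. Kdr, the main VEGF receptor of endothelium, is also in the endothelial marker list. Among the 10 genes, Nrarp followed Hey1 at 0.49, Notch2 at 0.46 and Rbpj at 0.45, and Dll4 at -0.24.

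Rbpj (ENSMUSG00000039191, chr5:53466152-53657362, plus strand) encodes the DNA-binding partner of the cleaved receptors. In males at 7 dpl it stood at 26.2, 22.6 and 19.3 CPM in controls and at 35.8, 29.1, 34.4, 29.2 and 28.5 CPM with SCFA. At 14 dpl it stood at 22.9, 19.8 and 20.1 CPM and at 27.7, 27.1 and 26.9 CPM. Neither pair of groups overlapped, and the differences were 0.45 ± 0.13 and 0.38 ± 0.14. In females at 7 dpl the controls held 26.6, 21.6 and 27.3 CPM and the SCFA libraries 30.9, 28.3, 35.6 and 29 CPM, again without overlap, where 7.22% of all genes did not overlap, at 0.29 ± 0.13. Without female control replicate 2 at 7 dpl and female SCFA replicate 2 at 3 dpl, that value was 0.17 ± 0.14. Over all libraries Rbpj had 22089 counts and its pseudogene Rbpj-ps3 had 45.

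The levels of all 3 receptors differed between the runs of columns. Notch1 (ENSMUSG00000026923, chr2:26457903-26516663, minus strand) stood at a median of 9.04 CPM in the first run and 14.5 CPM in the second, 0.86 ± 0.14 higher (edgeR, adjusted p = 5.25e-06). In the second run its 4 control libraries held 17.7 to 31.7 CPM and its 8 SCFA libraries 10.5 to 15.9 CPM. These controls were collected at 3 and 14 dpl and the SCFA libraries at all 3 times. In second-run males at 3 dpl the controls held 19.2 and 25.7 CPM and the SCFA libraries 13.4 and 12.5 CPM. In second-run females at 14 dpl the controls held 31.7 and 17.7 CPM and the SCFA library 11.5 CPM. What this split reflects was not tested. In the first run the mean difference with SCFA over the 6 strata was 0.01 ± 0.10, against -0.32 ± 0.10 over both runs. That first-run mean holds 0.85 for females at 14 dpl, whose only first-run control, replicate 1, had the lowest Notch1 value, 4.68 CPM. The other first-run strata ran from -0.44 in males at 7 dpl to 0.11 in females at 7 dpl. Males at 3 dpl had only SCFA replicate 1 in that run. Notch3 (ENSMUSG00000038146, chr17:32120820-32166852, minus strand), the receptor of mural cells, was 0.53 ± 0.14 higher in the second run (edgeR, adjusted p = 0.00204), with a mean SCFA difference of -0.24 ± 0.11 over both runs and -0.15 ± 0.13 in the first. Notch2 (ENSMUSG00000027878, chr3:98013527-98150361, plus strand) was 0.25 ± 0.09 higher in the second run (edgeR, adjusted p = 0.032), and its mean SCFA difference was 0.12 ± 0.07 over both runs and 0.28 ± 0.07 in the first, where it came past the threshold.

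**Figure D3:**
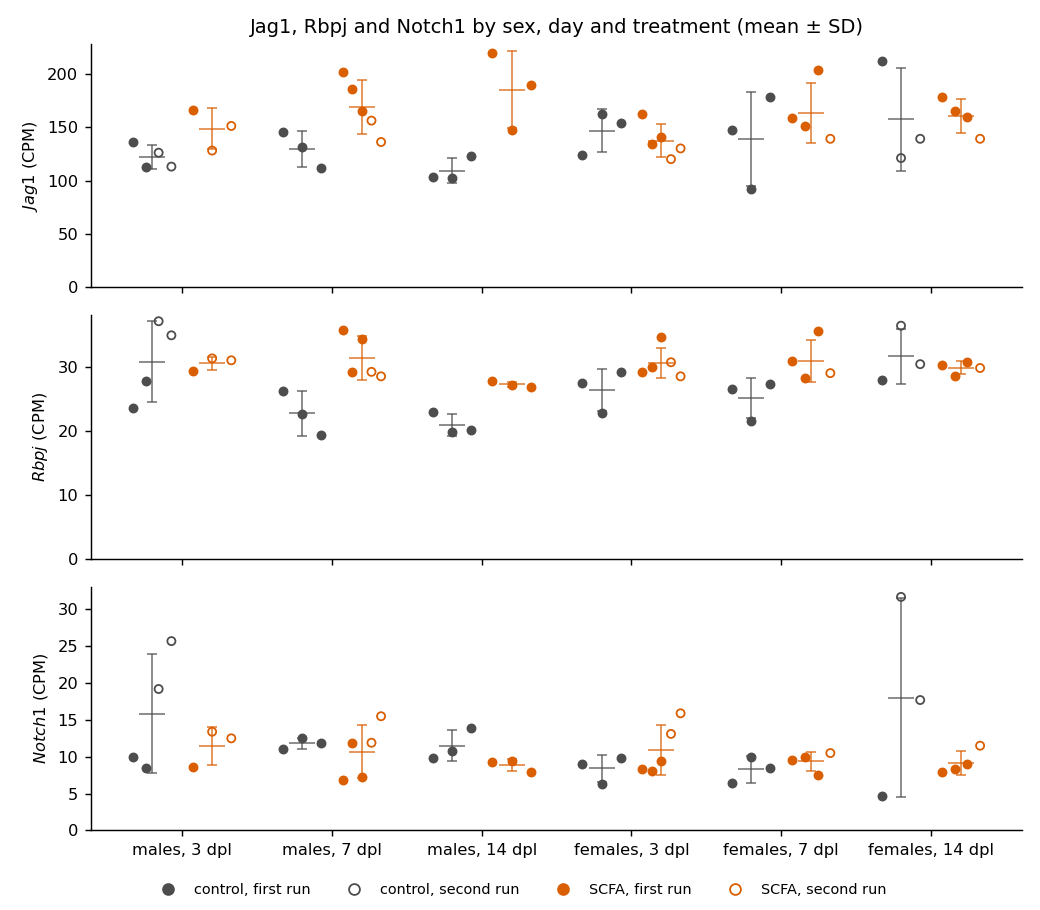
Jag1, Rbpj and Notch1 in CPM by sex, day and treatment, each point a library and each bar the mean with its SD. Grey is control, orange SCFA, and open points are the second run of columns. Jag1 and Rbpj of males at 14 dpl are higher in every SCFA library than in any control, and the highest Notch1 values, 17.7 to 31.7 CPM, are the open control points of males at 3 dpl and females at 14 dpl.

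In the main fit none of the target repressors was past the threshold with SCFA in any stratum, where 0 to 22.2% of all genes were. None was in the mean of the strata either, where 34.7% of all genes were. Hes5 came past it in that mean with a GC trend removed, and Hey1 in males at 7 dpl with a GC or length trend removed. Hes1 (ENSMUSG00000022528, chr16:30064384-30067796, plus strand) ran from 13.2 to 37.8 CPM, Hey1 (ENSMUSG00000040289, chr3:8663359-8667256, minus strand) from 9.5 to 19.7 CPM and Hes5 (ENSMUSG00000048001, chr4:154960923-154962371, plus strand) from 2.56 to 13 CPM. Their mean differences with SCFA over the 6 strata were -0.04 ± 0.08, 0.02 ± 0.07 and 0.23 ± 0.13. Hes1 followed the Müller glia markers at a rho of 0.67 and Hey1 at 0.64 over 43 libraries. Hes1 also followed the mural cell markers at 0.6 and the myelin markers at 0.49, and Hey1 the endothelial markers at 0.49. In males at 3 dpl the Hes1 groups did not overlap, with controls at 21.1, 27.5, 22.1 and 20.9 CPM and SCFA libraries at 13.2, 18 and 17.3 CPM. That difference was -0.44 ± 0.19. Hes5 in females at 3 dpl stood at 5.7, 5.08 and 5.11 CPM in controls and at 8.39, 4.83, 13, 5.47 and 7.56 CPM with SCFA, a difference of 0.68 ± 0.31 with overlapping groups.

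The windows upstream of Hes5 and Nrarp are printed because Hes5 is a standard target of RBPJ and Nrarp is the target that differed most here. Each is the 250 bases before the RefSeq start on GRCm38.p6, at chr4:154960673-154960922 and chr2:25180508-25180757, both plus strand. Capitals mark the core of the RBPJ motif, TGGGAA on either strand.
Hes5: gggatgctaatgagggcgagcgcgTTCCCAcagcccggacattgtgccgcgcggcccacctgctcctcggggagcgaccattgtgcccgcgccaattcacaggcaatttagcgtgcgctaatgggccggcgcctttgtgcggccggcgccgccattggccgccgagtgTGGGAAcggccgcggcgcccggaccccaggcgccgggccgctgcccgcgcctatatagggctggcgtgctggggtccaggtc
Nrarp: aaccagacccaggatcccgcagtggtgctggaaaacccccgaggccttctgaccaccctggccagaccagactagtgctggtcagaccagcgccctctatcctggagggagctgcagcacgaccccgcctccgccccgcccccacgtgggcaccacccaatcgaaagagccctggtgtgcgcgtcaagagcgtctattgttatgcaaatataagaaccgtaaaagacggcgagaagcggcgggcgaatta
The Hes5 window holds 2 matches, both inside the longer GTGGGAA, starting 226 bases before the start on the minus strand and 82 bases before it on the plus strand. The Nrarp window holds 0, which says only that these letters are absent from it. The windows of Notch1, Notch2, Notch3, Jag1 and Dll4 hold 0 as well. Those of the 2 Rbpj starts overlap and hold 2 and 1, and the match in the second window is also in the first. No window was available for Hes1 and Hey1. Over all 32851 promoters, 21.6% hold TGGGAA and 5.42% hold GTGGGAA in the same 250 bases. A match of these letters is a description and does not show binding.

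In males at 7 dpl 4 of 10 genes were past the threshold, Jag1, Rbpj and Nrarp higher and Dll4 lower, where 22.2% of all genes were. With the fold limit Nrarp alone was, 1 of 10, where 3.37% of all genes were. Dll4 fell out without male control replicate 2, and Jag1 and Rbpj fell out without male control replicate 3, at 0.40 ± 0.18 and 0.35 ± 0.14. In males at 14 dpl these were Jag1 and Dll4, 2 of 10 against 7.13%, and with the fold limit Dll4 alone, against 1.07%. The 1298 genes behind the 7.13% became 0 without male SCFA replicate 3. Of the 6 libraries of that stratum, Dll4 fell out without each except SCFA replicate 2, at -1.41 to -1.11, and Jag1 without SCFA replicate 1 or 3 or control replicate 1 or 2, at 0.62 to 0.75. In females 0 of 10 were past it at 7 dpl, where 0.643% of all genes were, and 0 of 10 at 14 dpl, where the share was 0%. With the libraries of the study's own gene lists, both the count and the share at 14 dpl were higher (below). At an unadjusted p under 0.05 in edgeR these female counts were 1 and 0 of 10, where 15.8 and 2.91% of all genes passed, and DESeq2 called 0 of 10 at 14 dpl and 0 of the 6 to which it gave an adjusted p at 7 dpl (not Hes5, Notch3, Nrarp or Dll4). Over the mean of the 6 strata 6 of 10 were past the threshold, where 34.7% of all genes were, and 0 of 10 with the fold limit, where 0.703% were. Because the genes were listed with such results known, nothing is read from these counts. The median difference of the 10 genes was 0.2 in males at 7 dpl, where that of all genes was -0.02, and 0.07 over the 6 strata, where it was 0.

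**Figure D4:**
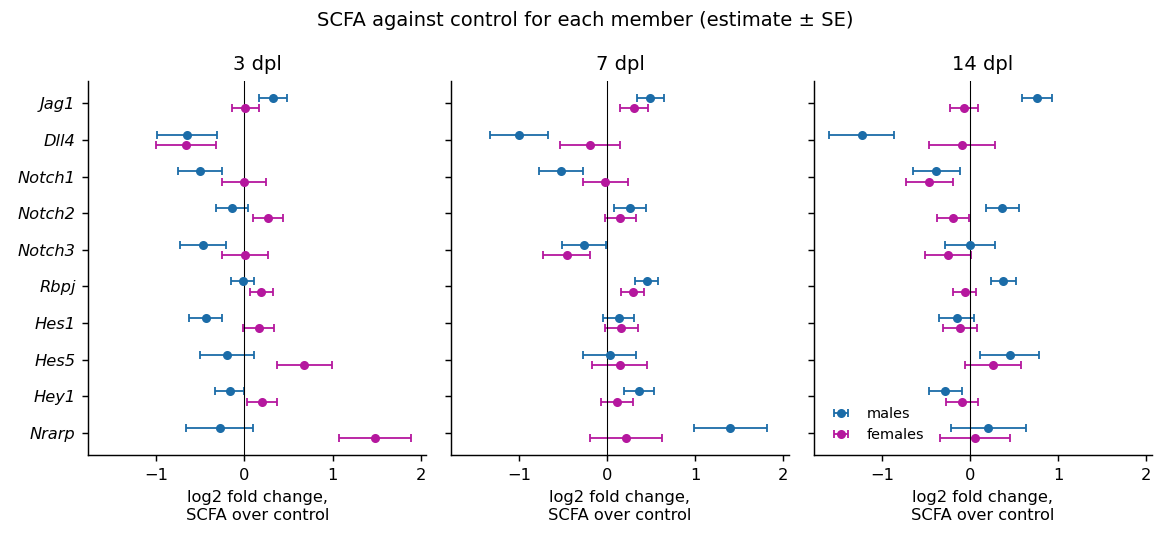
Log2 fold change of SCFA over control for each gene at 3, 7 and 14 dpl, in males (blue) and females (magenta), with bars of 1 SE from the fit of all 43 libraries. Nrarp lies at 1.48 in females at 3 dpl and 1.40 in males at 7 dpl, and Dll4 at -1.23 and Jag1 at 0.76 in males at 14 dpl, where both female values are within 0.1 of 0.

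In males at 3 dpl 0 of 10 genes were past the threshold, where 0.022% of all genes were, 2 of 10 had an unadjusted p under 0.05 in edgeR (10.9% of all genes), and DESeq2 called 0. Groups of 4 of the 10 genes did not overlap there, Dll4, Hes1, Hes5 and Hey1, all lower with SCFA, against 8.56% of all genes. Dll4 was lower by nearly the same amount in both sexes, at -0.65 ± 0.34 in males and -0.66 ± 0.34 in females. The mean of these, a comparison added after the data were seen, was -0.65 ± 0.24, which DESeq2 called and edgeR did not. In that mean 0 of 10 genes were past the threshold in edgeR, where 5.57% of all genes did, and 2 of 10 had an unadjusted p under 0.05 (19% of all genes).

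The response to SCFA was also set against itself in the other sex. This difference was past the threshold for 0 of 10 genes at each day, and for 0% of all genes in edgeR, while DESeq2 called 0 of the 10 and 41, 28 and 2 of all genes at 3, 7 and 14 dpl. At an unadjusted p under 0.05 the counts were 2, 1 and 4 of 10 at 3, 7 and 14 dpl, where 12.6, 7.32 and 10% of all genes passed. Nrarp differed most, by -1.76 ± 0.56 at 3 dpl (males minus females) and by 1.19 ± 0.58 at 7 dpl. At 14 dpl Jag1 differed by 0.83 ± 0.23 and Dll4 by -1.14 ± 0.52.

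Male and female controls were then compared with each other. At 14 dpl Jag1 and Rbpj were lower in males, at -0.69 ± 0.17 and -0.56 ± 0.15 (males over females), and Dll4 was higher at 1.24 ± 0.39 (edgeR, adjusted p = 0.0461, 0.0467 and 0.0849), 3 of 10 genes where 4.65% of all genes passed. Without female control replicate 1 the 847 genes behind that share became 8. Rbpj stood at 22.9, 19.8 and 20.1 CPM in male and 28, 36.4 and 30.4 CPM in female controls, without overlap. Dll4 stood at 1.91, 2.86 and 3.01 CPM in males and 0.738, 1.36 and 1.63 CPM in females, also without overlap, as in 21.1% of all genes. Jag1 stood at 103, 102 and 123 CPM in males and at 212, 121 and 139 CPM in females, overlapping at the lowest female library. These are the same male controls that stood low for Jag1 and Rbpj and high for Dll4 against SCFA, and 2 of the 3 female controls are from the second run and none of the male ones is. The 10 genes were listed with CPM values of these libraries known, so these p-values are no independent evidence. Without female control replicate 1, the one of them from the first run, none of the 3 genes passed (edgeR, adjusted p = 0.251, 0.136 and 0.298 for Jag1, Rbpj and Dll4). With any 1 of the 6 libraries left out Dll4 did not pass, Rbpj passed only without male replicate 1 or female replicate 3, and Jag1 only without female replicate 2 or 3. At 3 dpl 0 of 10 genes passed, where 0.0495% of all genes did, with Nrarp at 1.26 ± 0.44 (edgeR, adjusted p = 0.932). At 7 dpl 0 of 10 passed, where 0.0275% did. Unadjusted p was under 0.05 in edgeR for 2 of 10 genes at 3 dpl and 0 at 7 dpl (5.17 and 3.81% of all genes), and DESeq2 called 0 in both.

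No difference between days was called for these genes. None of the 10 passed in either treatment from 3 to 7 or from 7 to 14 dpl, where between 0 and 0.0659% of all genes did in edgeR, and DESeq2 called none of the 10. At an unadjusted p under 0.05 in edgeR there were 1 and 2 of 10 in controls, where 6.55 and 9.35% of all genes passed, and 0 and 1 of 10 with SCFA, where 8.55 and 13.7% did. In controls Nrarp changed by -0.36 ± 0.32 from 3 to 7 dpl and by 0.68 ± 0.32 from 7 to 14 dpl (edgeR, adjusted p = 0.908 and 0.511). Rbpj changed by -0.24 ± 0.10 from 3 to 7 dpl (edgeR, adjusted p = 0.673) and Hey1 by 0.30 ± 0.14 from 7 to 14 dpl (edgeR, adjusted p = 0.496). With SCFA, Hes1 changed by -0.35 ± 0.13 from 7 to 14 dpl (edgeR, adjusted p = 0.222).

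The other genes of the pathway, 49 tested of 52 listed, were compared in the same fit. This list too was drawn up with earlier results of these data known, and its p-values are no independent evidence. In females at 3 dpl 2 rose and 5 fell, 7 of 49 where 8.11% of all genes passed, led by Rfng, a glycosyltransferase that modifies the receptors, at -0.48 ± 0.11, the ligand-like Dlk2 at -0.92 ± 0.26, and Dtx3, of the Deltex family, at -0.38 ± 0.11 (edgeR, adjusted p = 0.0193, 0.0401 and 0.0465). Males at 7 dpl had 9 that rose and 9 that fell, 18 of 49 where 22.2% of all genes passed. The co-activator Maml2, which binds the receptor and RBPJ complex, rose by 1.2 ± 0.22 and the ubiquitin ligase Itch by 0.72 ± 0.16, and Dtx3 fell by 0.52 ± 0.11 (edgeR, adjusted p = 0.000391, 0.00215 and 0.00149). Itch alone passed in males at 14 dpl, at 0.52 ± 0.17 (edgeR, adjusted p = 0.0828), where 7.13% of all genes did. In males at 3 dpl and in females at 7 and 14 dpl 0 passed in edgeR, 3, 12 and 1 of 49 had an unadjusted p under 0.05, where 10.9, 15.8 and 2.91% of all genes did, and DESeq2 called 1, 2 and 0. Over the mean of the 6 strata 8 rose and 14 fell, 22 of 49 where 34.7% of all genes passed, led by Itch at 0.36 ± 0.07, Mib2, a ubiquitin ligase of the ligands, at -0.28 ± 0.05, and Dlk2 at -0.50 ± 0.11 (edgeR, adjusted p = 9.34e-05, 9.78e-05 and 0.00063). In controls at 14 dpl 3 were lower and 1 higher in males, 4 of 49 where 4.65% of all genes passed, led by Itch at -0.73 ± 0.18, Numbl, an adaptor related to Numb, at 0.49 ± 0.14 and the demethylase Kdm5a at -0.47 ± 0.15 (edgeR, adjusted p = 0.0431, 0.0714 and 0.0809). The mean of both sexes at 3 dpl gave 1 higher and 4 lower, 5 of 49 where 5.57% of all genes passed. The median over the 49 genes was -0.04 in males at 7 dpl and -0.03 over the 6 strata, where all genes had -0.02 and 0.

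Base composition moved with these differences. The longest transcript of Rbpj has 43.7% GC and that of Jag1 48.8%, while Dll4 has 55.9%, Notch1 57.1%, Notch3 59.6% and Nrarp 54.5%. Over the 59 pathway genes tested, the mean SCFA difference correlated with GC content at a Spearman rho of -0.65, and over 18180 genes at -0.44. These points share libraries, and genes are not independent replicates. When a smooth trend with GC content was removed from each library, an alternative chosen after the data were seen, the mean difference went from 0.21 to 0.11 for Rbpj, from -0.32 to -0.20 for Notch1 and from -0.24 to -0.10 for Notch3. It went from 0.30 to 0.29 for Jag1, and to -0.54 for Dll4, 0.59 for Nrarp, 0.19 for Notch2 and 0.40 for Hes5. Notch1 and Notch3 thereby fell out and Hes5 and Notch2 came past the threshold, so 6 of 10 were past it again, though not the same 6. In males at 7 dpl Rbpj at 0.27 ± 0.11 and Dll4 at -0.82 ± 0.32 fell out and Hey1 at 0.47 ± 0.17 came in. Nrarp was then 1.54 ± 0.42 in females at 3 dpl and 1.55 ± 0.42 in males at 7 dpl, both past the threshold.

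**Figure D5:**
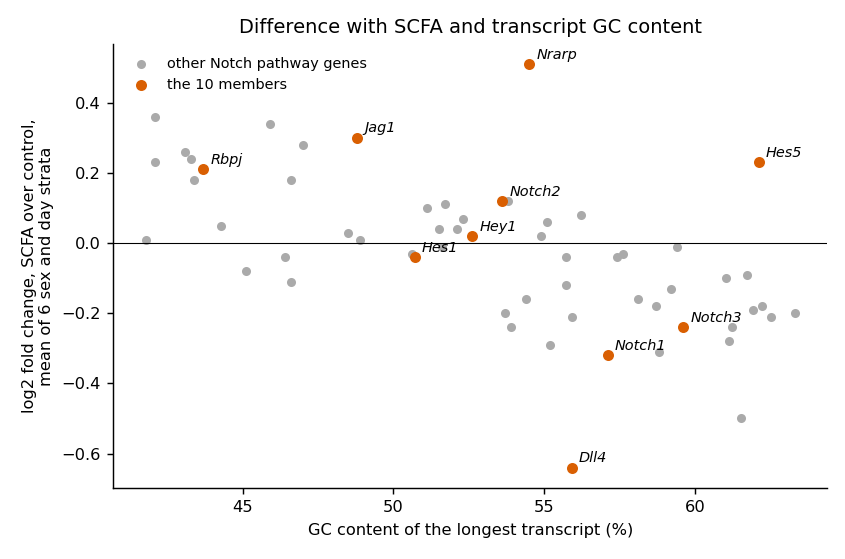
Mean log2 fold change of SCFA over control over the 6 strata against the GC content of the longest transcript, for the 10 genes (orange) and the 49 other pathway genes tested (grey). The points slope downward with a rho of -0.65, from Rbpj at 43.7% GC and 0.21 to Notch3 at 59.6% and -0.24, while Nrarp lies at 54.5% and 0.51, Hes5 at 62.1% and 0.23, and Dll4 at 55.9% and -0.64.

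Taken in pairs, the 10 genes formed 45 pairs with Spearman rho from -0.60 to 0.57 over the 43 libraries after run means were removed. The highest were Notch2 with Rbpj at 0.57 and Nrarp with Hey1 at 0.49, and the lowest Jag1 with Dll4 at -0.60 and Jag1 with Notch1 at -0.54. Dll4 followed the endothelial markers at 0.02 and Notch3 the mural cell markers at -0.19. Jag1 followed the microglia and macrophage markers at -0.65 and Dll4 at 0.45. In males at 14 dpl those markers summed to 70.2 to 73.4 CPM in controls and 39 to 56.6 CPM with SCFA, with 1 of 8 passing as lower in edgeR, where 3.86% of all genes did. Their part in the Jag1 and Dll4 differences was not tested.

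Exons of Notch1, Notch2, Notch3, Dll4, Hes5 and Nrarp overlap those of other genes, on the opposite strand except for Notch2, and whether the counting used strand is not stated. The overlap holds 1068 bases for Notch1 and 0610009E02Rik, which had 591 counts over all libraries against 8716 for Notch1, and 433 bases for Hes5 and Gm20421, with 458 counts against 4985. For Nrarp the overlapping gene Gm38287 shares 2051 exonic bases and had 0 counts. Reads from shared bases of pairs on opposite strands cannot be told apart without strand. Notch2 and Gm42820 share 541 exonic bases on the same strand, where strand would not separate their reads either.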

How the data were processed

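The authors deposited raw read counts per Ensembl gene for 43 libraries of whole retina, and per the submitters' processing notes used genome build mm10 and DESeq2. The aligner, annotation and strand setting are not given in the sources used here. All per-sample columns were used. The 10 genes, the 52 other pathway genes and the cell type markers were chosen with earlier results of these data known. The named other pathway genes are the 3 with the lowest adjusted p among those called in a comparison, and the genes named as following Nrarp are the 5 with the highest rho.

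Counts were fitted with edgeR 4.0.16 (limma 3.58.1, R 4.3.3), after filterByExpr by group and TMM scaling, in 1 quasi-likelihood model of all libraries with a term for each of the 12 groups and for the run of columns, which was inferred from column order. P-values were adjusted by Benjamini-Hochberg over 18197 genes and called under 0.1, the adjusted p limit of the study, whose rule also had a fold change limit (absolute log2 fold change over 1 is given beside it), and the SE is the log2 fold change over the root of F. CPM is the count per 1e+06 counts of a library, without TMM. Gene symbols, coordinates and lengths were read from GENCODE M21 (GRCm38), where 54409 of the 54532 identifiers were found. Correlations are Spearman's with the run means removed, and a pseudocount of 1 was used for log2 CPM in correlations.

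Each library is a pool of retinas. The deposited tables do not say whether pools shared mice, so p-values measure the spread between libraries. Of 59 replicate pairs none was within sampling noise (lowest chi-square per gene 4.04, where 1 is noise). Alternatives were DESeq2 1.42.0, other filters, scalings and thresholds, no run term, the first run alone, a replicate block, the libraries of the study's own gene lists, and each of the 43 libraries left out. Removing a trend with GC content or length (lowess, span 0.3), leaving out the 2 libraries that stand apart, and the mean of both sexes at 3 dpl were added after the data were seen. The fitting code was tested on simulated data. Depth, 14826957 to 21507527 counts, leaves Nrarp at 6 to 63 and Dll4 at 9 to 53 counts per library.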

Additional observations from a re-analysis of the deposited data

Results flagged for a closer look

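Hes1 stood at 33.2 CPM in female SCFA replicate 1 at 7 dpl, while the 3 other libraries of that group lay between 20.7 and 22.6 CPM. The gap to its nearest neighbour was 0.846 of the range of the 4 libraries. This was the 1 library set apart from its group among 50 gene and group pairs (5 groups of 4 or 5 libraries), and chance sets apart about 1 in 20.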

How the results depend on the processing

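Counts below are of the 10 genes past the threshold. In females at 3 dpl the count of 1 became 0 without the run term, with at least 10 counts in every library (which removes Nrarp and Dll4) and without the 2 libraries that stand apart, and 2 in the first run alone and with no filter. In males at 7 dpl 4 became 1 with an absolute log2 change over 1 and 2 with 10 counts in every library. There Jag1 fell out without the run term (0.38 ± 0.18), Dll4 in the first run alone (-0.82 ± 0.39), and Rbpj and Dll4 with the GC trend removed. In males at 14 dpl 2 became 1 with the fold limit, at an adjusted p under 0.05, without the run term, in the first run alone and with the GC trend removed, and 4 with the libraries of the study's lists. Those libraries gave 4 in females at 14 dpl and 2 between the sexes at 7 dpl, where the count was 0, and turned Jag1 in females at 14 dpl from -0.07 to 0.38. The mean of the 6 strata fell from 6 to 0 with the fold limit and to 3 with 10 counts in every library. There Notch1 went from -0.32 to 0.01 in the first run alone, where females at 14 dpl had only control replicate 1. In the same mean Notch3 lost its call in 25 of the 43 fits with 1 library left out. Between male and female controls at 14 dpl 3 became 1 with the fold limit or the GC trend removed, and 0 in the first run alone, with the replicate block and with the study's libraries. The sex difference of the response rose from 0 to 1 at 3 dpl and at 14 dpl with no filter, and the mean of both sexes at 3 dpl from 0 to 1 in DESeq2. The cause of these shifts was not tested.

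With 1 library left out, counts ran from 0 to 1 in females at 3 dpl, in females at 7 dpl, in the mean of the sexes at 3 dpl and for SCFA from 7 to 14 dpl, from 2 to 6 in males at 7 dpl, from 0 to 3 in males at 14 dpl, from 5 to 6 in the mean of the strata and from 0 to 4 between the sexes at 14 dpl, and stayed at 0 in the other comparisons. Same-numbered SCFA and control libraries correlated at a mean of 0.0167 in 18 pairs, 5 of them over 0.1, so the numbers do not pair them. The replicate block moved all-gene calls between the sexes at 14 dpl from 847 to 14.

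Over all genes, calls in females at 3 dpl went from 1476 to 91 without the run term, 3260 in the first run alone and 206 without the 2 libraries that stand apart. In males at 7 dpl 4047 became 2096 without the run term and 2623 with the GC trend removed. In males at 14 dpl 1298 became 205 without the run term, 536 in the first run and 1999 in DESeq2. In females at 14 dpl 0 became 2962 with the study's libraries. With 1 library left out these ran from 11 to 2410 in females at 3 dpl, 2161 to 4858 in males at 7 dpl, 0 to 2129 in males at 14 dpl and 8 to 1423 between the sexes at 14 dpl.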
